A study of Mus musculus with 64 samples.

Results

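Ribosome biogenesis factors were followed as a module of 42 named genes in a deposited timecourse table of 23134 genes from mouse CD4 T cells. The 42 genes were taken by symbol from a given list, by a rule that uses no measured value, although the list was drawn up with earlier results of these data known. Of these, 41 were found by that symbol and 1, Utp4, by the older symbol Cirh1a. All 42 passed the filter on low values. RNA of splenic CD4 T cells from C57BL/6J mice was sequenced in 64 libraries, 4 in each of 16 groups. The groups combine 4 genotypes with 4 times. WT carried Cd4-Cre-ERt2 alone, DKO carried Rc3h1/2 fl/fl with Cd4-Cre-ERt2, KO carried Zc3h12a fl/fl with Cd4-Cre-ERt2, and TKO carried all of these floxed alleles with Cd4-Cre-ERt2. Every group, WT included, thus shared the tamoxifen-inducible Cre driven from Cd4 and a treatment with 4'-OH-tamoxifen. The cells were then activated through CD3 and CD28 for 40 h under Th1 conditions and kept in medium with IL-2 for 2 days. They were taken without restimulation (0 h) or after 1, 2 or 4 h of anti-CD3/28. The cells were previously activated T cells, and the unstimulated group is not a naive one. Neither the age of the mice nor the exons removed by Cre was given in the sources used here.

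Ribosomes are assembled in the nucleolus, where RNA polymerase I transcribes the precursor of the ribosomal RNAs. Small nucleolar ribonucleoproteins modify that precursor, the box C/D class by methylation of the ribose and the box H/ACA class by formation of pseudouridine. Large sets of assembly factors, helicases and nucleases then cut, fold and export the small and the large subunit. T cells are known to raise ribosome production when they are activated, and many of these genes are known targets of the transcription factor MYC, which binds the E-box. The products of Rc3h1 and Rc3h2 (Roquin-1 and Roquin-2) and of Zc3h12a (Regnase-1) are RNA-binding proteins that repress messenger RNAs.

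The E-box CACGTG was searched in RefSeq promoter windows of build GRCm38.p6, which run from 250 bases before to 50 bases after a gene's start. The motif reads the same on both strands. Of the 42 members 37 have a window, and 9 of these (24.3%) hold the motif. Among all genes with a window 2187 of 27025 (8.09%) hold it. The shares were 17.1% (12 of 70) among other ribosome biogenesis factors and 10% (6 of 60) among the cytosolic ribosomal protein genes. The 9 matches are shown with the motif, the only one searched, in capitals. Each is read 5′ to 3′ on the strand of the gene. A match is a description of these letters and not a measured binding site.
Mybbp1a, chr11:72441355-72441376, plus strand: gtcttctgagccCACGTGtttg
Wdr43, chr17:71616220-71616249, plus strand: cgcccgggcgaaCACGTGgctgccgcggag
Utp4, chr8:106893643-106893672, plus strand: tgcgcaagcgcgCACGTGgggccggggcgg
Utp18, chr11:93885769-93885798, minus strand: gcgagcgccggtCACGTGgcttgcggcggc
Utp20, chr10:88826765-88826789, minus strand: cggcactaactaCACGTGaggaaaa
Tsr1, chr11:74898092-74898121, plus strand: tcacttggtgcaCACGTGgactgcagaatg
Ltv1, chr10:13193092-13193121, minus strand: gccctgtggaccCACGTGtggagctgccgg
Nop2, chr6:125131811-125131840, plus strand: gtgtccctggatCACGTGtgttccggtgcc
Pes1, chr11:3963965-3963994, plus strand: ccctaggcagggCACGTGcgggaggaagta
Counted from the gene's start, the first base of the motif lay between position -60 (Nop2) and position 41 (Mybbp1a). The motif was in 6 windows of small subunit factors, in 2 of large subunit factors and in 1 of a nucleolar protein. No window of an RNA polymerase I, box C/D or box H/ACA member held it. The 9 genes rose in WT cells at 2 h by log2 changes of 1.6 (Pes1) to 2.55 (Nop2), inside the range of the other members. Polr1b, Polr1c and Ppan, whose values stand out below, have windows without these letters.

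Each library held 5369867 to 11665883 recovered reads. All values below were rescaled to 1 depth and tested with limma on log2(value + 1) over 16140 genes. A gene is called where the Benjamini-Hochberg adjusted p is below 0.05, and changes are given as log2 ± SE with n = 4 libraries per group. The labels do not tie the libraries to separate mice or cultures, so the p-values measure only the spread between these samples. In whole-gene values Rc3h1 averaged 618.5 in WT, 494 in DKO and 550 in TKO at 0 h, and 1207.2, 656.8 and 673.1 at 2 h. Rc3h2 was not lower at 0 h, with means of 527 in WT, 682.5 in DKO and 766.3 in TKO. Zc3h12a at 1 h lay at 792.9 to 1044.8 in WT, 452.9 to 705.7 in KO and 421.3 to 498.8 in TKO. At 0 h its means were 81 in WT, 104.1 in KO (not called) and 126.3 in TKO (higher by 0.59, adjusted p = 0.011), and at 4 h neither was called. Because the deleted exons are not stated, whole-gene values do not check the deletions. The summed level of 8 CD4 T cell markers was 7432.9 to 9685.5 in WT at 0 h. Sums at 0 h were at most 128.1 for 2 CD8 markers, 162.8 for 5 myeloid markers, 10.4 for 4 NK cell markers and 27.9 for 3 erythroid markers in WT. The CD8 sum at 0 h was 45.1 to 57.8 in DKO, 40.3 to 278.2 in KO and 78 to 122.4 in TKO. In KO at 4 h it was 109 to 402.8. The 7 B cell markers together gave 883.4 to 1832.7 in WT, 1455.2 to 2117 in DKO, 1594.3 to 2382.6 in KO and 2769.5 to 4024.9 in TKO at 0 h. Their sums were lower later in WT, 106.2 to 204 at 4 h (511.2 to 697.3 in TKO). The CD4 marker sum was also lower in WT at 4 h, at 4170 to 4907.4. The part of these cell types in the changes below was not tested. In bulk RNA, fewer cells of a type and less RNA per cell cannot be told apart.

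The mean log2 level over the 42 members shows the course of the whole module. In WT it was 8.01 (SD 0.43) at 0 h, 9.16 (SD 0.07) at 1 h, 10.13 (SD 0.1) at 2 h and 10.07 (SD 0.08) at 4 h. DKO, KO and TKO went from 7.72, 7.92 and 8.34 at 0 h to 10.24, 10.32 and 10.27 at 4 h. Within each genotype no library at 0 h reached any library at 1 h. Some libraries, named by their place in the deposited list, stood apart from the other 3 of their group. The fourth WT 0 h library had a mean of 7.37 against 8.17 to 8.26, and it was the lowest of its group for 41 of the 42 members. The first KO library at 4 h had 10.59 against 10.2 to 10.26, the fourth WT library at 4 h had 10.19 against 10.01 to 10.04, and the fourth TKO library at 1 h had 9.32 against 8.96 to 9. Results whose counts moved without these libraries are given with and without them, and without the fourth TKO 1 h library the counts of TKO against WT at 1 h were unchanged at 2 higher and 1 lower. Before restimulation the SD of the module mean was 0.26 to 0.43, and after it 0.05 to 0.18, while the fit uses a single spread per gene.

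**Figure D1:**
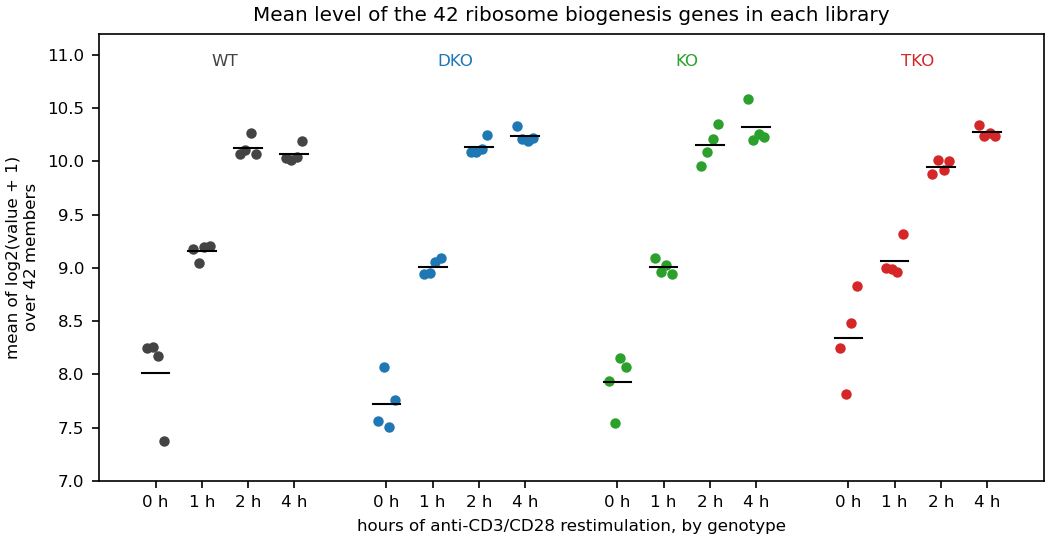
Mean of log2(value + 1) over the 42 ribosome biogenesis genes (vertical axis) in each of the 64 libraries, by genotype and hours of anti-CD3/28 (horizontal axis); points are libraries and bars are group means. In WT the group mean went from 8.01 at 0 h to 10.13 at 2 h, and the lowest point of the WT 0 h group, at 7.37, is the fourth library of its list.

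In WT cells restimulation raised nearly the whole module within 1 h and all of it within 2 h. After 1 h 40 of 42 members rose and none fell, with a median log2 change of 1.18 (2.26-fold). Over all genes tested 31.1% were called at 1 h, 18.7% as higher, and the median change was -0.1. The steepest early rises were those of Gnl3 (1.96 ± 0.23), nucleostemin, Ppan (1.91 ± 0.21), a factor of large subunit assembly, and Polr1b (1.77 ± 0.21), the second-largest subunit of RNA polymerase I. The 2 members not called at 1 h were Nop10 (0.17 ± 0.25, adjusted p = 0.63) and Wdr12 (0.32 ± 0.14, adjusted p = 0.069). Without the fourth WT 0 h library 38 of 42 were higher at 1 h and the median was 0.92, with 26.6% of all genes called.

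At 2 h all 42 members were higher than at 0 h, with a median of 2.06 (4.16-fold), while 52% of all genes were called, 26.5% as higher. For 41 of 42 members no WT library at 2 h overlapped a WT library at 0 h. Counts of members without overlap, here and below, have no counterpart counted over all genes. At 4 h all 42 were still higher, with a median of 1.99 (3.96-fold), no overlap for any member and 51.8% of all genes called, 24.7% as higher. Without the fourth WT 0 h library the medians were 1.87 and 1.81, with 42 of 42 called at both times. The median change of all genes shifted with the scaling, from -0.46 to -0.13 at 2 h over 5 scalings. Relative to that median the members' median stood 2.2 to 2.22 higher at 2 h, 1.26 to 1.28 higher at 1 h and 1.98 higher at 4 h under all 5. Of the genes called, 59.9% were higher at 1 h (31.7 to 75.7% over the scalings) and 50.9% at 2 h (33.1 to 53.2%).

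Most of the movement came before 2 h. From 1 to 2 h 41 of 42 members rose again (35.5% of all genes called, 16.6% as higher), with a median of 0.97. Gnl3 alone was not called in that step (0.49, adjusted p = 0.09), after the highest rise of all members in the step before. From 2 to 4 h, where 28.4% of all genes were called, 9.3% as higher and 19.1% as lower, 1 member rose and 1 fell. The helicase gene Ddx10 fell from 1500, 1342.7, 2018.9 and 1832.7 at 2 h to 916.6, 960.6, 1067.9 and 1045.5 at 4 h, a change of -0.73 ± 0.12 (limma, adjusted p = 3.5e-06). Utp20, a component of the small subunit processome, went from 1584.2, 1318.5, 1581 and 1727.9 to 2072, 2185.2, 2525.1 and 2242.6 (0.54 ± 0.19, adjusted p = 0.028). For both genes the libraries of the 2 times did not overlap. The members' median of -0.11 turned to 0.23 with total-read scaling, where 13 members were higher and 1 lower, and to 0.09 with upper-quartile scaling, where 8 were higher and 1 lower. Under all 5 scalings it stayed 0.11 to 0.12 below the median of all genes. The call of Utp20 was lost in 3 of 18 alternative analyses, that without a filter on low values and those without the second WT 2 h or the third WT 4 h library.

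**Figure D2:**
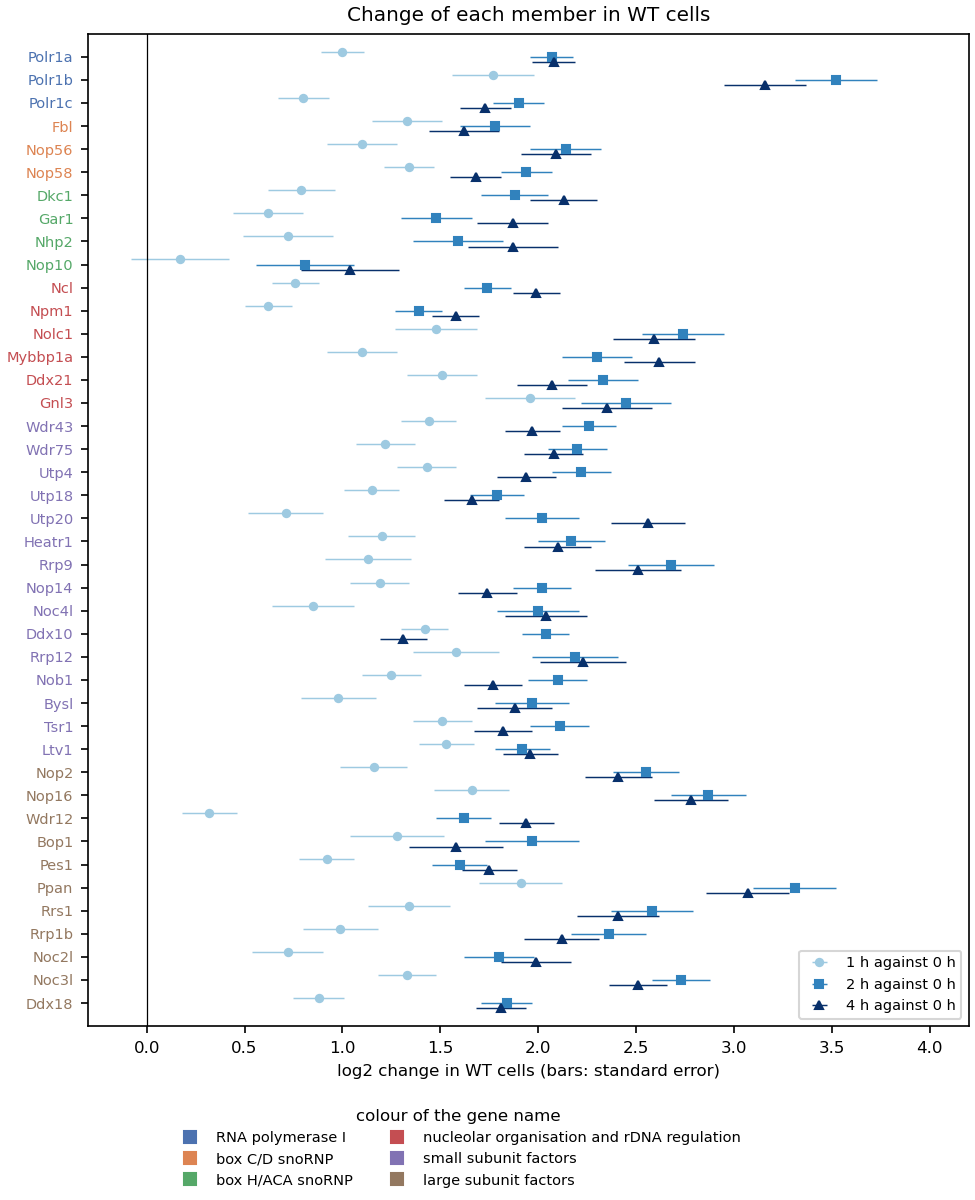
Change of each member in WT cells (log2, horizontal axis, with standard errors) at 1, 2 and 4 h against 0 h; gene names on the vertical axis are coloured by role. All points lie right of 0; Polr1b at 2 h is farthest at 3.52, and Nop10 is closest at 2 h, at 0.81.

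Among the 3 members of RNA polymerase I, the enzyme that makes the ribosomal RNA precursor, the medians at 1, 2 and 4 h were 1, 2.07 and 2.08. Polr1b was the member with the largest change of all. Its WT values were 140.3, 123.5, 110.5 and 45.9 before restimulation and 374.6, 293, 350.9 and 322 after 1 h. They were 1007.4, 983.7, 1436.2 and 1111.9 after 2 h and 835.3, 786.2, 858.2 and 1022.5 after 4 h. Every library at 1 h was above every one at 0 h, and the lowest at 2 h was more than the highest at 1 h. The change at 2 h was 3.52 ± 0.21 (adjusted p = 1.1e-20). Polr1c, a subunit that RNA polymerases I and III share, had 131.1, 146.4, 158.8 and 116.9 at 0 h and 459.6, 569.2, 588.4 and 454.3 at 2 h. Its 2 groups did not overlap, and the change of 1.9 ± 0.13 (adjusted p = 1.5e-18) was the smallest of the 3. Polr1a, the largest subunit, changed by 2.07 ± 0.11.

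The box C/D proteins, core proteins of the particles that methylate the ribose, had medians of 1.33, 1.94 and 1.68. Nop56, a core protein, had 654.7, 717.8, 600.7 and 302.2 at 0 h and 2378.7, 2340.3, 2659 and 2207.1 at 2 h (2.14 ± 0.18, adjusted p = 3.2e-15). Fbl, the methyltransferase fibrillarin, had 124, 132.4, 146.1 and 71.9 at 0 h and 348.2, 468.7, 421.1 and 353.7 at 2 h (1.78 ± 0.18, adjusted p = 7.1e-13). In both genes all 2 h libraries were above all 0 h libraries, and the lowest value at 0 h was that of the fourth library. Nop58, the third core protein, changed by 1.94 ± 0.13.

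The 4 box H/ACA proteins had medians of 0.67, 1.54 and 1.87, the lowest of the 6 roles at 1 and 2 h. Dkc1, the pseudouridine synthase dyskerin, had 468.6, 430.1, 443.3 and 238.1 at 0 h and 1399.3, 1281.6, 1471 and 1478 at 2 h (1.88 ± 0.17, adjusted p = 6.6e-14). Nop10, the smallest of the core proteins, had 143.3, 174.2, 223.5 and 129.9 before restimulation, 260.7, 363.7, 352.6 and 206.4 after 2 h and 351.4, 331.4, 286.7 and 393.7 after 4 h. The Nop10 libraries of 0 and 2 h overlapped, and those of 0 and 4 h did not. Its changes were 0.81 ± 0.25 (adjusted p = 0.0048) at 2 h and 1.04 (adjusted p = 0.00032) at 4 h, the smallest of all members at both times. Gar1 and Nhp2, the remaining core proteins, changed by 1.48 ± 0.18 and 1.59 ± 0.23 at 2 h and by 1.87 each at 4 h.

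The 6 nucleolar proteins that organise the nucleolus or regulate ribosomal DNA had medians of 1.29, 2.32 and 2.21. Nolc1, a chaperone of small nucleolar ribonucleoproteins, had 650.6, 643.2, 492.8 and 260.6 at 0 h and 3165.8, 3106.9, 3401.2 and 3185.2 at 2 h (2.74 ± 0.21, adjusted p = 1.3e-16). Npm1, nucleophosmin, had 2916.5, 2893.2, 2368.7 and 2179.2 at 0 h and 6205.4, 7945.6, 6720.4 and 6212.7 at 2 h (1.39 ± 0.12, adjusted p = 7.2e-15). Neither gene's groups overlapped, and Npm1 had the smallest relative rise of the 6. In CPM per kb of exon, Npm1 and Ncl, nucleolin, were the most abundant members at 0 h with levels of 123 and 61.5, and they kept these ranks at 2 h with 322 and 204. On the same per-length scale Wdr12 was lowest, at 1.8 and 5.54. Polr1b went from rank 41 to rank 32 of 42, and Ppan from rank 40 to rank 25. The length joins all annotated exons, 11955 bases for Wdr12 and 10188 for Ncl, and these ranks and the rho below depend on it. Not divided by length, Wdr12 at 0 h in WT (142.9 to 199.4) lay above Nop16 (25.1 to 60). Likewise Ncl (3812 to 5788.4) lay above Npm1. Across the 42 members the 2 h change and the 0 h per-length level had a Spearman rho of -0.37, a description over genes of the same libraries in which the 0 h level enters both measures.

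The 15 factors of the small subunit had medians of 1.22, 2.1 and 1.96. Rrp9, a protein of the U3 ribonucleoprotein, had 133.2, 127.4, 102.9 and 61.5 at 0 h and 598.2, 699.7, 747.8 and 595.3 at 2 h (2.68 ± 0.22, adjusted p = 4.6e-16). Utp18, of the small subunit processome, had 282.6, 262.8, 303.5 and 140.3 at 0 h and 789.6, 796.6, 911.8 and 806.9 at 2 h (1.79 ± 0.14, adjusted p = 3.6e-17). These 2 genes mark the ends of the range for the role, and neither had overlapping groups. Between them lay early processome proteins such as Heatr1 (2.17), Utp4 (2.22) and Wdr43 (2.26). Factors that act late on the precursor of the small subunit lay there too, among them Nob1 (2.1), the nuclease of the last cut of 18S ribosomal RNA, and Ltv1 (1.92) and Tsr1 (2.11).

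The 11 factors of the large subunit had medians of 1.16, 2.36 and 2.12. Ppan had 135.2, 132.4, 88.9 and 51.1 before restimulation and 392.3, 353, 352 and 343.1 after 1 h. It had 873.8, 999.8, 1102.7 and 860.9 after 2 h, and 812.3, 734.2, 705.2 and 987.5 after 4 h. Its libraries at 2 h lay far above those at 0 h, and the change was 3.31 ± 0.21 (adjusted p = 5.7e-20). Pes1, which forms a complex with Bop1 and Wdr12, had 183, 171.2, 213.4 and 136.8 at 0 h and 509.1, 509.2, 608.6 and 498.9 at 2 h (1.6 ± 0.14, adjusted p = 2e-14). Bop1 and Wdr12 changed by 1.97 ± 0.24 and 1.62 ± 0.14 at 2 h. At 1 h the 3 proteins of this complex stood at 0.92 (Pes1), 1.28 (Bop1) and 0.32 (Wdr12). The other members of the role changed by 1.8 (Noc2l) to 2.87 (Nop16) at 2 h.

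Some members overlap another gene, and the strand setting of the authors' counting is not given, so reads in shared stretches cannot be told apart. The neighbour held 250.3% as many reads as the member for Bysl (Ccnd3) and 156.1% for Gnl3 (Pbrm1). For Rrp9, Nop56, Nhp2, Bop1, Dkc1, Wdr12 and Heatr1 it held 10.2 to 26%. Polr1b, Polr1c and Ppan overlap no such gene.

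Other genes of the same pathway were read against the 52% of all genes called at 2 h in WT cells, 26.5% as higher and 25.5% as lower. Of 85 other ribosome biogenesis factors 80 were higher and none lower at 2 h, with a median of 1.57, led by Rcl1 (3.47), Mdn1 (2.84) and Nle1 (2.74). Of 17 other RNA polymerase I and ribosomal DNA transcription genes 15 were higher and 2 lower, with Cd3eap (2.22), Taf1a (2.2) and Polr1e (1.98) at the top. Among 81 cytosolic ribosomal protein genes 67 were higher, with a lower median of 0.56. Among 10 host genes of small nucleolar RNAs 8 were higher, with a median of 1.29, and of 19 purine and pyrimidine synthesis genes 14 were higher and 2 lower, with a median of 0.8 and Ctps (2.42), CTP synthase, in front. Of 11 MYC network genes tested 4 were higher and 5 lower. Myc itself had group means of 1252.9, 8454.5, 10016 and 4505.3 at 0, 1, 2 and 4 h. It was higher by 2.75 at 1 h and 3.01 at 2 h and then fell by 1.15 between 2 and 4 h. Mxd3 and Mxd4, which encode repressors that compete with MYC for its partner MAX, changed by -3.92 and -2.25 at 2 h. Of 16 p53 target genes, watched because faults in ribosome assembly are known to act on p53, 6 were higher and 1 lower.

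All 42 members were also higher at 2 and 4 h in each knockout. The medians at 2 and 4 h were 2.42 and 2.49 in DKO, 2.2 and 2.33 in KO, and 1.6 and 1.87 in TKO. Over all genes 55.3 and 55.2% were called in DKO (29.6 and 28.3% as higher), 58.1 and 60.7% in KO (30.1 and 33% as higher), and 47.3 and 50.4% in TKO (24.4 and 27.2% as higher). Polr1b had the largest change in DKO (3.96 and 3.69), in KO (3.81 and 3.71) and in TKO at 2 h (2.8), and Rrp9 in TKO at 4 h (2.86). The time of the highest group mean differed in number. It was 2 h for 27 members and 4 h for 15 in WT, 18 and 24 in DKO, 14 and 28 in KO, and 3 and 39 in TKO. These counts carry no test. Without the first KO 4 h library all 42 were still called in KO at 4 h, with a median of 2.27.

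The next comparison asks whether the knockouts respond differently from WT, as the change in a knockout minus the change in WT. All of these differences share the WT 0 h libraries. In TKO at 2 h the estimate was below 0 for all 42 members, with a median of -0.46, and 7 members passed the test, all with a smaller rise than WT. Over all genes 4.54% were called, 2.3% as lower, and the median difference was 0. The 7 were Ppan (-1.69 ± 0.3, adjusted p = 0.00014), Polr1c (-1.39 ± 0.19, adjusted p = 1.1e-06), Heatr1 (-0.83 ± 0.25, adjusted p = 0.036), Ltv1 (-0.71 ± 0.19, adjusted p = 0.021), Ncl (-0.69 ± 0.17, adjusted p = 0.0092), Npm1 (-0.68 ± 0.17, adjusted p = 0.01) and Polr1a (-0.56 ± 0.16, adjusted p = 0.022). The members' median stood 0.46 to 0.47 below that of all genes under 5 scalings, while the share of higher among all calls was 49.2% and ranged from 17.2 to 65%. Without the fourth WT 0 h library 4 were called, Polr1c, Ncl, Npm1 and Ppan, with 3.85% of all genes, and the members' median was -0.26. Ppan and Polr1c were called under all 26 alternatives run for this comparison, and the other 5 were lost under 4 to 13 of them.

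**Figure D3:**
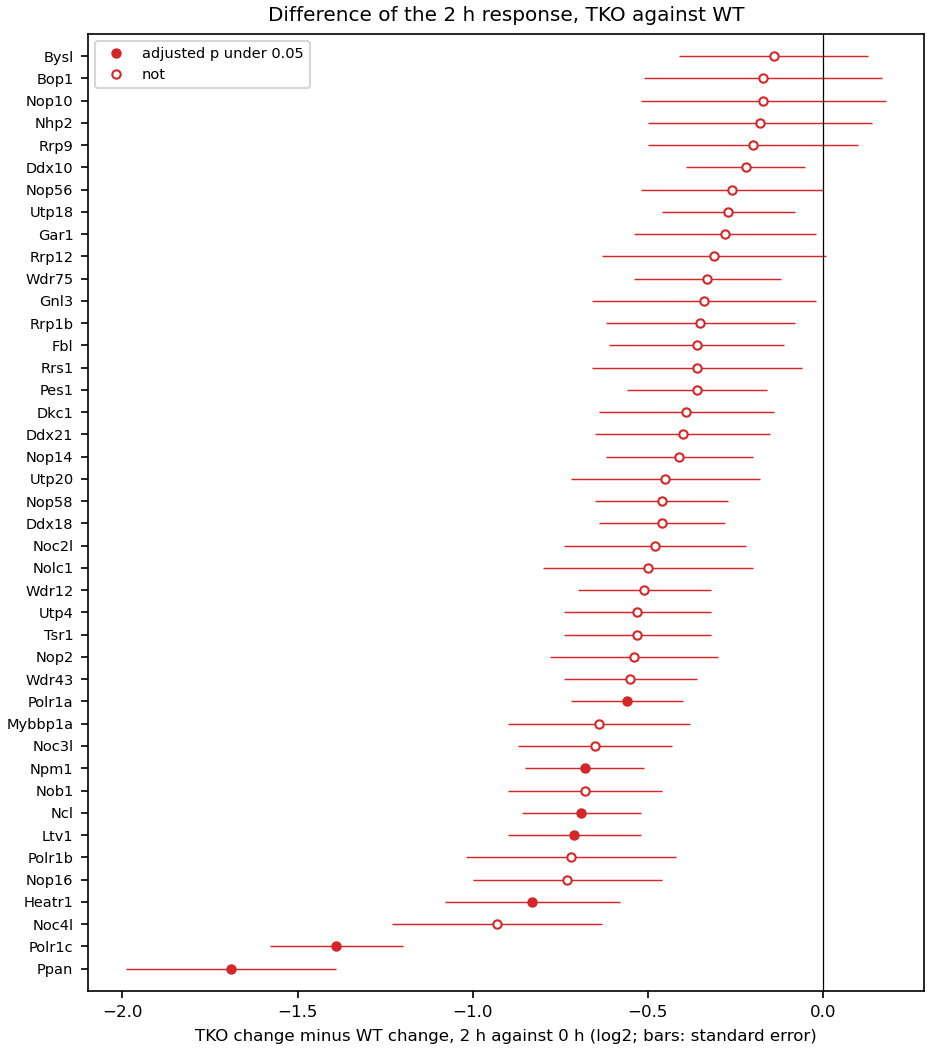
Change from 0 to 2 h in TKO minus the same change in WT (log2, horizontal axis, with standard errors) for each member (vertical axis), ordered by size; filled points passed the test at an adjusted p below 0.05. All 42 points lie left of 0, and Ppan (-1.69) and Polr1c (-1.39) are farthest out.

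For Ppan and Polr1c the level in TKO was higher than in WT at 0 h and not lower at 2 h. Ppan had 242.7, 221.7, 349.4 and 438.9 in TKO at 0 h against 135.2, 132.4, 88.9 and 51.1 in WT, and 978.6, 894.7, 948.7 and 908.9 in TKO at 2 h against 873.8, 999.8, 1102.7 and 860.9 in WT. At 0 h every TKO library was above every WT library (1.65 ± 0.21, adjusted p = 1.5e-08), and at 2 h the TKO values lay inside the WT range (-0.03, adjusted p = 0.92). Heatr1 had 739.4, 486.8, 683.2 and 1221.8 in TKO at 0 h against 565.2, 532.6, 548.7 and 288.3 in WT, and 1603.4, 1955.9, 1841.4 and 2164.6 against 1987.6, 1917.7, 2354.7 and 2207.1 at 2 h. The Heatr1 groups overlapped at both times. Ncl was the only one of the 7 called as lower than WT at 2 h. It had 12450.8, 11484, 10835.9 and 11668.4 in TKO at 2 h against 16234.3, 17269.8, 15454.2 and 16599.1 in WT. These Ncl groups did not overlap (-0.5, adjusted p = 0.001), and the call held under all 18 alternatives.

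At 4 h the only member with a different response in TKO was Polr1c (-0.97 ± 0.19, adjusted p = 0.00035), while 6.63% of all genes were called, 4.78% as higher and 1.85% as lower. The members' median was -0.14. Without the fourth WT 0 h library it was 0.04, Polr1c was still the only member called, and 7.43% of all genes were called. In DKO the only one was again Polr1c, at -0.99 ± 0.19 (adjusted p = 0.0068) at 2 h and -1 ± 0.19 (adjusted p = 0.0017) at 4 h. Over all genes 0.335% were called at 2 h, 0.198% as higher and 0.136% as lower, and 0.824% at 4 h, 0.335% as lower. The DKO medians were 0.35 at 2 h and 0.49 at 4 h, and -0.05 and 0.12 under the deposited scaling. Under that scaling 17 members in place of 38 had an estimate above 0 at 2 h, and the medians of all genes were -0.32 and -0.3. The members' median stood 0.27 to 0.29 above that of all genes at 2 h and 0.42 to 0.43 at 4 h under all 5 scalings. In DKO 8 members at 2 h and 25 at 4 h had an unadjusted p below 0.05, Polr1c among them. Without the fourth WT 0 h library 17 members had a larger response and 1 a smaller one in DKO at 4 h, with 2.15% of all genes called. At 2 h Utp18 was then called beside Polr1c, with 1 member higher, 1 lower and 0.568% of all genes called. In the fit of only the groups compared, Polr1c in DKO at 2 h was not called (adjusted p = 0.067). In KO no member was called by limma at 2 h or 4 h, where 0.204 and 2.19% of all genes were, 0 and 3 members had an unadjusted p below 0.05, and limma voom called 0 at 4 h. Without the fourth WT 0 h library 6 had a larger response in KO at 4 h, with 6.38% of all genes called. Of 85 other ribosome biogenesis factors 12 had a smaller response in TKO at 2 h, led by Mdn1 (-1.1), Nip7 (-0.98) and Nol11 (-0.64). Over all genes 4.54% were called for the TKO response at 2 h, 2.3% as lower.

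Polr1c had the largest difference from WT of all members at 0 and 1 h, in DKO and in TKO. In DKO it had 354.8, 391.8, 451 and 330.8 before restimulation and 487.8, 552.3, 428.8 and 502.2 after 1 h. It had 730.6, 688.7, 651.2 and 779.1 after 2 h, and 674.9, 618, 603.9 and 620.6 after 4 h. The lowest of the unstimulated DKO libraries was above the highest WT library of that time, 158.8. In TKO it had 488, 512.8, 554.4 and 487.4 before restimulation and 618, 618.8, 571 and 620.5 after 1 h. It had 775.6, 729.4, 723.3 and 681.4 after 2 h, and 1049.6, 823.5, 727.9 and 876.8 after 4 h. In WT it had 252.6, 243.3, 234 and 228 after 1 h and 442.1, 426.8, 411.2 and 562 after 4 h, beside the 0 and 2 h values given above. Every DKO and every TKO library was above every WT library at each of the 4 times. All unstimulated DKO and TKO libraries were also above all WT libraries of 1 h. Against WT the DKO difference was 1.46 ± 0.13 (adjusted p = 3.9e-12) at 0 h, 1.03 (9.3e-08) at 1 h, 0.47 (0.016) at 2 h and 0.46 (0.026) at 4 h. The TKO difference was 1.88 (3.9e-17), 1.34 (1e-11), 0.5 (0.0023) and 0.91 (2.4e-07), all limma adjusted p. In KO, which keeps Rc3h1 and Rc3h2, Polr1c had 153.4, 135.7, 150.6 and 192.6 at 0 h, overlapping WT, and the difference was 0.19 (adjusted p = 0.69). At 1, 2 and 4 h KO differed by 0.04, 0.13 and 0.24, none called.

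Polr1c lies at chr17:46243920-46248054 on the minus strand of GRCm38 (ENSMUSG00000067148). Its DKO difference at 0 and 1 h and its TKO difference at all 4 times were called under all 18 alternatives. The DKO call was lost in 5 of 18 at 2 h and in 10 of 18 at 4 h. DKO exceeded KO by 1.27 ± 0.13 (adjusted p = 1.9e-09) at 0 h, the only member called in that comparison (1.18% of all genes called, 0.83% as higher). TKO exceeded DKO by 0.43 (adjusted p = 0.023). The head-to-head neighbour Yipf3, named after its values were seen, had 0 h means of 130.7 in WT, 165.8 in DKO, 162.5 in KO and 163.4 in TKO, with no call in DKO (adjusted p = 0.15) or TKO (adjusted p = 0.064). Later Yipf3 was higher in TKO by 0.38, 0.64 and 0.48 at 1, 2 and 4 h (adjusted p = 0.044, 0.00057 and 0.0082) and in KO by 0.64 at 2 h and 0.38 at 4 h (adjusted p = 0.0039 and 0.043), and it was not called in DKO.

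**Figure D4:**
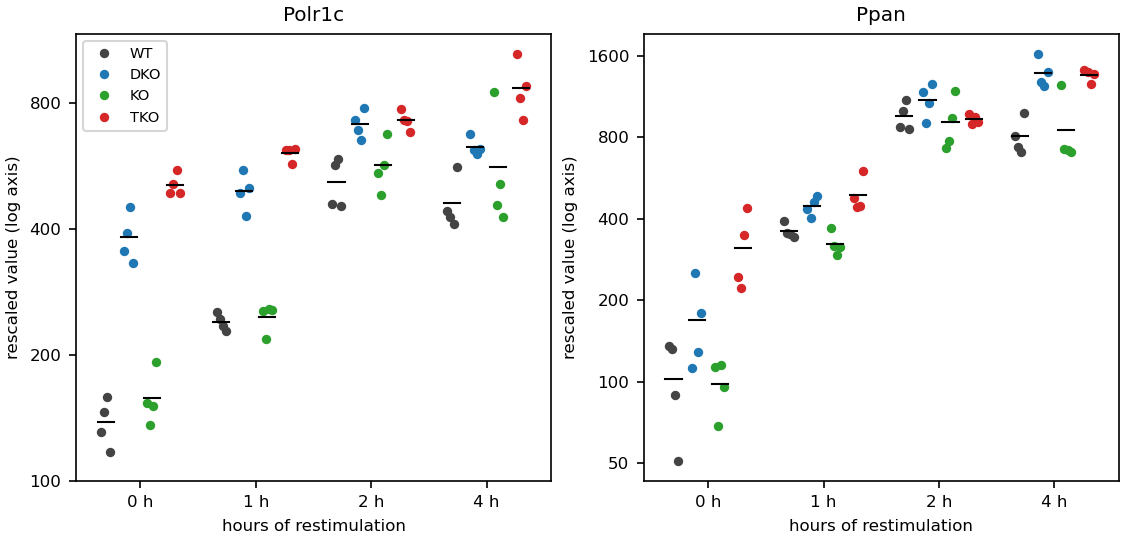
Rescaled values (log axis, vertical) of Polr1c (left) and Ppan (right) in every library by hours of restimulation (horizontal axis) and genotype; points are libraries and bars are group means. Polr1c in DKO and TKO lies above WT at every time, from 330.8 up at 0 h against at most 158.8 in WT, while Ppan in TKO is above WT at 0 h and within the WT range at 2 h.

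Ppan, at chr9:20888175-20892178 on the plus strand (ENSMUSG00000004100), was the other member called as higher in both DKO and TKO at 0 h. In DKO it had 112.1, 252.1, 129 and 179.9 at 0 h and 1624.9, 1280.5, 1237.5 and 1400.6 at 4 h, and in TKO 1420.2, 1400.3, 1256.2 and 1376.3 at 4 h. At 4 h every library of both was above every WT library, and at 0 h those of DKO overlapped WT. The TKO difference was 1.65 at 0 h, called under all 18 alternatives, 0.44 (adjusted p = 0.11) at 1 h and 0.76 (adjusted p = 0.0029) at 4 h, the last lost under 2 scalings. The DKO difference was 0.75 ± 0.21 (adjusted p = 0.018) at 0 h and 0.78 (adjusted p = 0.017) at 4 h, lost in 5 and 7 of 18. KO had 113.2, 68.8, 115.5 and 95.4 at 0 h, with a difference of 0.02 (adjusted p = 0.99).

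Before restimulation the rest of the module was unevenly placed. In DKO at 0 h Polr1c and Ppan were higher and 4 members were lower, Nop58 (-0.4), Nolc1 (-0.65), Gnl3 (-0.68) and Rrs1 (-0.65). The members' median was -0.34, and 7.65% of all genes were called, 5.35% as higher and 2.3% as lower. Gnl3 had 100.2, 193.6, 94.7 and 141 in DKO against 266.3, 263.8, 245.1 and 101.3 in WT, so the groups overlapped through the fourth WT library alone (adjusted p = 0.049). Without that library 28 members were lower and 1 higher, with a median of -0.56 and 11.1% of all genes called. Under the deposited scaling 2 members were higher and none lower, with a median of -0.07 that was still 0.3 below that of all genes, under RLE scaling 2 were higher and 10 lower, and the 4 lower calls were lost in 9 to 11 of 18 alternatives.

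In TKO at 0 h 11 of 42 members (26.2%) were higher and none lower, while 37.5% of all genes were called, 19.3% as higher. The 11 were Polr1c, Ppan, Heatr1 (0.66 ± 0.17), Utp4 (0.63), Ltv1 (0.61), Npm1 (0.58), Nop16 (0.52), Nop2 (0.46), Noc3l (0.46), Nob1 (0.45) and Polr1a (0.43). The members' median was 0.25 and that of all genes 0.07, and of all calls 51.5% were higher (35.5 to 58.9% over 5 scalings). Npm1 had 3609.3, 3870.6, 4441.9 and 3504.5 in TKO, all above the WT range of 2179.2 to 2916.5, and with Polr1c and Ppan it was 1 of 3 members without overlap. The B cell marker sums given above did not overlap between TKO and WT at 0 h. Without the fourth WT 0 h library 7 members were higher and the median was 0.07, with 30.8% of all genes called. In the fit of only the groups compared 3 were called. Counts from fits of only the groups compared, here and below, have no counterpart counted over all genes.

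**Figure D5:**
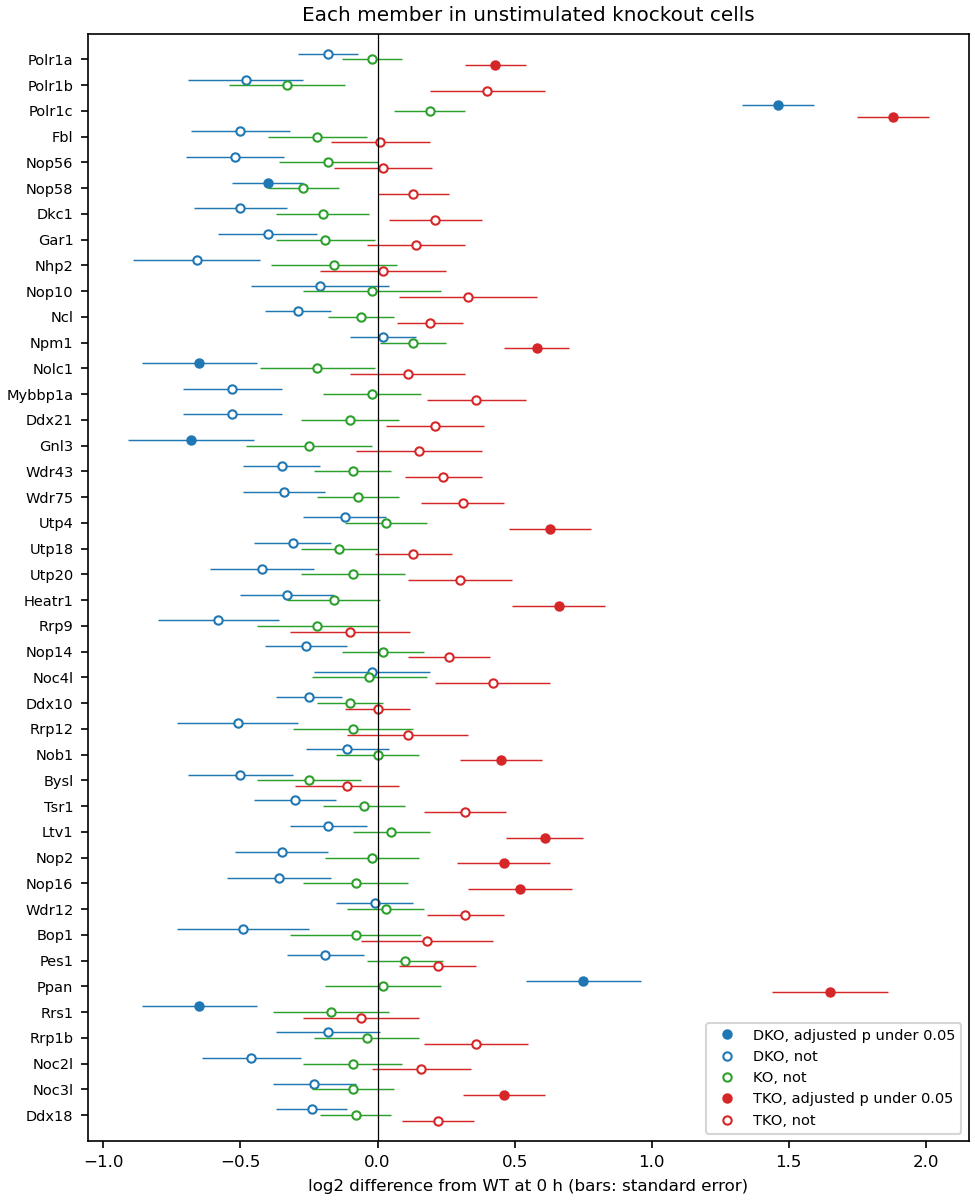
Difference of each member from WT at 0 h (log2, horizontal axis, with standard errors) in DKO, KO and TKO; filled points passed the test at an adjusted p below 0.05. Polr1c (1.46 in DKO, 1.88 in TKO) and Ppan (0.75 and 1.65) lie right of the others, most DKO points lie left of 0 and most TKO points right of it.

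The knockouts were also set against each other at 0 h, a comparison chosen after seeing the data. TKO was higher than DKO for 36 of 42 members and lower for none, with a median of 0.6, while 14.8% of all genes were called, 8.71% as higher. The largest were Heatr1 (1 ± 0.17, adjusted p = 8.4e-05) and Ppan (0.91, adjusted p = 0.0025). Heatr1 had 331.9, 507, 276.9 and 405.8 in DKO at 0 h, and 3 of the 4 TKO libraries were above all of these. Only 3 of 42 members had no overlap, and with only the groups compared no member was called. TKO was higher than KO for 13 members (20.4% of all genes called, 11.4% as higher), with a median of 0.36. That count was 2 with only the groups compared, 4 under the deposited scaling and 7 to 29 with 1 library left out.

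The TKO effect was then set against the sum of the DKO and KO effects. At 0 h the difference was above 0 for all 42 members, with a median of 0.72 (37 members and 0.25 under the deposited scaling). As reported, 4 were called, Polr1b (1.21 ± 0.3, adjusted p = 0.034), Heatr1 (1.16 ± 0.25, adjusted p = 0.0092), Nop58 (0.8 ± 0.19, adjusted p = 0.02) and Polr1a (0.63 ± 0.16, adjusted p = 0.033). Over all genes 0.731% were called, 0.613% as higher. Polr1b had 108.7, 75.6, 161 and 204 in TKO, 76.3, 91.6, 49.6 and 66.9 in DKO, 78.6, 55.8, 98.9 and 79.5 in KO and 140.3, 123.5, 110.5 and 45.9 in WT. All of these groups overlapped WT. The count rests on single WT libraries, being 0 without the second and 32 without the fourth (3.56% of all genes called), and it was 0 under the deposited scaling. At 4 h limma called none, limma voom 0, 2 had an unadjusted p below 0.05, and 0.167% of all genes were called.

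After restimulation few members were called between TKO and WT beyond Polr1c in the fit of all 16 groups. With only the groups compared in the fit, 12 members in place of 3 were called at 1 h. At 2 h that fit called 18 in place of 3, and at 4 h it called 5, as reported. At 1 h Npm1 was higher, with 4859.3, 5236.7, 5076.2 and 4671.7 in TKO against 3338, 4116.1, 4116 and 4308.5 in WT (0.33, adjusted p = 0.033). Ddx10 was lower, with 750.9, 683.2, 929.5 and 863.8 against 1110.1, 1124.6, 1032 and 1020.9 (-0.42, adjusted p = 0.0072), and 31.6% of all genes were called, 15.8% as higher and 15.8% as lower. Neither gene's groups overlapped at 1 h, and under the deposited scaling 1 member was higher and 18 were lower. Under that scaling the median of all genes was -0.23, and 22.6% of all calls at 1 h were higher (50.1% as reported). The members' median at 1 h stood 0.15 to 0.16 below that of all genes under all 5 scalings. The Npm1 call was lost in 9 of 18 alternatives and that of Ddx10 in none. At 2 h Nop58 was lower, with 1796.7, 1819.6, 1939.6 and 2295.1 in TKO against 2320.1, 2312.6, 2599.5 and 2628.2 in WT (-0.33, adjusted p = 0.043), without overlap. Nop58 and Ncl were the 2 members lower at 2 h (7 under the deposited and 12 under upper-quartile scaling, each with 1 higher). The members' median was -0.19, and 36.7% of all genes were called, 20.1% as higher and 16.6% as lower. Of all calls at 2 h 54.8% were higher, 43.7% under the deposited and 41.3% under upper-quartile scaling. The B cell marker sum was 775.1 to 1427.9 in WT and 1984.6 to 3060.9 in TKO at 1 h, and 330 to 750.1 and 860.9 to 1662.1 at 2 h.

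At 4 h 5 members were higher in TKO, Polr1c, Ppan, Nop10, Utp4 (0.41, adjusted p = 0.022) and Npm1 (0.3, adjusted p = 0.037), with 43.9% of all genes called, 27.4% as higher. Nop10 had 750.3, 550.3, 383.2 and 434.5 in TKO against 351.4, 331.4, 286.7 and 393.7 in WT, which overlapped (0.6, adjusted p = 0.047). The medians of the members (0.17) and of all genes (0.2) were alike, and under the deposited scaling both were below 0, with 1 member higher and 1 lower. Of all calls 62.4% were higher, and 32.8% under upper-quartile scaling. Only 3 members were called without the fourth WT 4 h library, Polr1c, Utp4 and Ppan, with 35.5% of all genes called. Nop10, Npm1 and Utp4 were lost in 13, 14 and 10 of 18 alternatives. In DKO, Polr1c alone was called at 1 h and 2 h (8.23 and 9.47% of all genes called, 5.95 and 7.96% as higher), and Polr1c and Ppan at 4 h (5.37%, 4.69% as higher).

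In KO no member was called against WT by limma at 0, 1, 2 or 4 h, where 1.32, 2.17, 5.94 and 33.4% of all genes were. An unadjusted p below 0.05 was seen for 1, 1, 0 and 7 members, and limma voom called 0, 0, 0 and 4. At 0 h the members' median was -0.09. Without the fourth WT 0 h library it was -0.29 and Nop58 was called as lower, with 1.53% of all genes called. At 4 h the members' median was 0.25 against 0.22 for all genes, and it was -0.03 under the deposited scaling. Ppan in KO at 4 h had 1249.9, 722.2, 717.9 and 707.8, so the first library stood above the others, as it did for the module mean. Without it no member was called. Myc was not called between TKO and WT at any time, and in KO it was higher at 4 h (0.46, adjusted p = 0.044).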

How the data were processed

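Total RNA came from a Trizol extraction, and a NuGEN Universal kit was used for the libraries, per the labels' protocols. The build was GRCm38, per the submitters' processing notes, and no aligner, counting tool or strand setting was given in the sources used here. Per the file headers, the authors deposited for each group a list of 4 normalized counts without replicate numbers, so a library is named by its place in the list. The deposited group means (a signal in normalized counts) were used only as a check and matched the lists within 0.049%. The deposited false discovery rates (p-values adjusted by the authors) and log2 fold changes were not used. All low values (100%) were whole multiples of 1 read with a tolerance of 0.1, which gave the recovered reads: a median of 7720366 per library, of which the 10 largest loci held 26.67 to 38.25%. Libraries of a group differed by more than sampling noise (chi-square of 4.75 to 61.93 per degree of freedom). Place in the list did not pair libraries (correlation of deviations 0.019 for the same place, -0.002 for others).

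Values were rescaled by the trimmed mean of M values (trims of 30 and 5 percent) to the median library. Genes with at least 10 reads at median depth (1.3 CPM) in at least 4 libraries and a sum of at least 15 were kept. The test was limma 3.58.1 (R 4.3.3; trend, robust) on log2(value + 1) over 16 group means and 64 libraries, with 48 residual degrees of freedom and Benjamini-Hochberg adjustment over 16140 genes. Fold changes on this scale understate changes of low genes. The design had foreseen a count model if the files held raw counts. Because they hold lists of normalized values, the limma option was used. Scaling, pseudocount, filter, the groups fitted and each library in turn were varied, and limma voom on the recovered reads was added after seeing the data. The script was tested on simulated data. Levels per length used exon lengths of GENCODE M21, and promoters came from RefSeq GRCm38.p6. The members and lists were chosen with earlier results of these data known. Given library by library are the members with the largest and smallest WT change in each role at 2 h, and the 3 largest called members of each genotype comparison and response difference. Tables were handled with Python 3.11.15, pandas 2.3.3 and numpy 2.4.6, and figures drawn with matplotlib 3.10.9.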

Additional observations from a re-analysis of the deposited data

Results flagged for a closer look

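A library far from the other 3 of its group was found in 10 of 68 groups of values examined, and chance gives about 1 in 20. For the mean log2 level of the members these were the lowest WT library at 0 h (7.37), the highest at 4 h in WT (10.19) and in KO (10.59), and the highest TKO library at 1 h (9.32). For single members they were Polr1c in KO at 1 h (218.2, others 255.2 to 258.1) and in TKO at 1 h (571, others 618 to 620.5), Dkc1 in WT at 0 h (238.1, others 430.1 to 468.6), Utp18 in WT at 2 h (911.8, others 789.6 to 806.9), Ppan in KO at 4 h (1249.9, others 707.8 to 722.2) and Pes1 in WT at 2 h (608.6, others 498.9 to 509.2).

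The response to restimulation differed from WT, by a tested difference in the limma fit, for Polr1c in DKO (-0.99 at 2 h and -1 at 4 h) and in TKO (-1.39 at 2 h and -0.97 at 4 h). In TKO at 2 h it also differed for Ppan (-1.69), Heatr1 (-0.83), Ltv1 (-0.71), Ncl (-0.69), Npm1 (-0.68) and Polr1a (-0.56). The TKO effect at 0 h exceeded the sum of the DKO and KO effects for Polr1b (1.21), Heatr1 (1.16), Nop58 (0.8) and Polr1a (0.63).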

How the results depend on the processing

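The count of members called for restimulation at 2 and 4 h in every genotype was 41 or 42 under each alternative run, and that of WT at 1 h was 37 to 41. Counts between genotypes moved more, and they are given by setting, with the reported count in parentheses. With only the groups compared in the fit there were 0 (1) for the DKO response at 2 h, 2 (7) for the TKO response at 2 h, 1 (6) for DKO at 0 h, 0 (1) for DKO at 2 h, 1 (0) for KO at 1 h, 3 (11), 12 (3) and 18 (3) for TKO at 0, 1 and 2 h, 9 (2) for WT 4 against 2 h, 0 (36) for TKO against DKO, 2 (13) for TKO against KO and 0 (4) for the departure from additivity at 0 h. With the deposited scaling they were 17 (7) and 6 (1) for the TKO response at 2 and 4 h, 2 (6), 2 (1), 0 (1) and 0 (2) for DKO at 0, 1, 2 and 4 h, 2 (0) for KO at 0 h, 19 (3), 8 (3) and 2 (5) for TKO at 1, 2 and 4 h, 13 (36) for TKO against DKO, 4 (13) for TKO against KO and 0 (4) for additivity. Scaling to total reads gave 3 (7) and 2 (1) for the TKO response at 2 and 4 h, 3 (5) for TKO at 4 h, 14 (2) for WT 4 against 2 h, 23 (36) for TKO against DKO, 7 (13) for TKO against KO and 1 (4) for additivity. Without a filter there were 4 (7) for the TKO response at 2 h, 2 (6) for DKO at 0 h, 12 (0) for KO at 4 h, 10 (5) for TKO at 4 h, 1 (2) for WT 4 against 2 h and 1 (4) for additivity. RLE scaling gave 2 (1) for the TKO response at 4 h, 12 (6) and 1 (2) for DKO at 0 and 4 h, 9 (3) and 3 (5) for TKO at 2 and 4 h, 4 (2) for WT 4 against 2 h and 7 (4) for additivity. Upper-quartile scaling gave 3 (1) for the TKO response at 4 h, 0 (2) for DKO at 4 h, 7 (11), 13 (3) and 2 (5) for TKO at 0, 2 and 4 h, 9 (2) for WT 4 against 2 h, 23 (36) and 7 (13) for TKO against DKO and KO and 1 (4) for additivity. A filter of 30 reads gave 2 (1) for the TKO response at 4 h, 12 (6), 2 (1) and 0 (2) for DKO at 0, 1 and 4 h, 7 (11), 6 (3), 8 (3) and 3 (5) for TKO at 0, 1, 2 and 4 h, 6 (2) for WT 4 against 2 h and 23 (36) and 7 (13) for TKO against DKO and KO. Limma voom, added after seeing the data, gave 2 (1) for the TKO response at 4 h, 2 (6) for DKO at 0 h, 4 (0) for KO at 4 h, 5 (3) and 8 (5) for TKO at 2 and 4 h, 4 (2) for WT 4 against 2 h and 2 (4) for additivity, and a pseudocount of 4 gave 1 (0) for KO at 4 h. The cause of these shifts was not tested. Nop10 at 1 h in WT, not called at 0.17, was -0.02 with upper-quartile and -0.07 with total-read scaling. Leaving out each library in turn gave 1 to 2 for the DKO response at 2 h and 1 to 18 at 4 h, 0 to 6 for the KO response at 4 h, 2 to 19 and 1 to 3 for the TKO response at 2 and 4 h, 1 to 29, 0 to 1 and 0 to 2 for DKO at 0, 2 and 4 h, 0 to 1 for KO at 0 and at 4 h, 7 to 23, 2 to 5 and 2 to 4 for TKO at 0, 2 and 4 h, 1 to 2 for WT 4 against 2 h, 1 to 2 for DKO against KO, 21 to 39 for TKO against DKO, 7 to 29 for TKO against KO and 0 to 32 for additivity. The extremes of the DKO count at 0 h came without the third (1) and the fourth (29) WT 0 h library, and those of the TKO response at 2 h without the third WT 0 h (2) and the second TKO 0 h library (19). For TKO at 0 h they came without the fourth WT 0 h (7) and the second TKO 0 h library (23). The planned edgeR and DESeq2 alternatives were not run, because the table holds lists of normalized values. No paired analysis was possible because the lists carry no replicate numbers. Depth and 4 libraries per group limit what small differences could be detected.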
